A study of Mus musculus with 4 samples.

Results

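The replication-dependent histone genes were followed in single blood stem and progenitor cells of the mouse fetal liver with and without Bclaf1, a nuclear protein of transcription and RNA processing. Members were all genes in the deposited gene lists whose symbol begins with Hist1h, Hist2h, Hist3h or Hist4h, which gave 67 of 32285 genes: 6 of linker histone H1, 18 of H2A, 18 of H2B, 12 of H3 and 13 of H4. The study read messenger RNA and 6 surface proteins in the same cells (CITE-seq, 10x Genomics 3′ chemistry) from LSK cells, the lineage-negative, Sca1-positive and c-Kit-positive fraction that holds blood stem cells and early progenitors, of E17.5 livers. KO cells came from Vav-Cre:Bclaf1 f/f embryos, in which the Vav promoter drives Cre recombinase in blood cells, and WT cells from Bclaf1 f/f embryos with the same floxed alleles and no Cre, so an effect of Cre and an effect of Bclaf1 cannot be told apart. Each genotype was a pool of 10 embryos, of which 20000 cells were sorted and 10000 loaded as 1 library. There were therefore no replicates and no test was made: each difference is one between 2 libraries, and each interval in parentheses is a 95% interval that covers counting error only.

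Replication-dependent histone genes supply most of the histones that package newly copied DNA: H2A, H2B, H3 and H4 form the nucleosome core, and H1 binds the linker DNA. They lie in clusters, lack introns, and are switched on at the start of S phase by cyclin E with CDK2 through the coactivator NPAT. Their messages normally end in a short stem-loop bound by SLBP in place of a poly(A) tail and are degraded when DNA synthesis stops. Some of the genes also give polyadenylated messages, known in particular from cells that have left the cycle. The assay primes with oligo(dT), so the levels below are those of captured 3′ tags, in which the amount of a message, the share of it with a tail and priming inside it cannot be told apart.

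After filters on cells, 2676 KO cells with 104358292 gene UMIs (unique molecular identifiers, which count captured molecules) and 5345 WT cells with 141419013 gene UMIs were kept, with a median per cell of 34188 UMIs in KO and 22734 UMIs in WT. Histone genes took 1692607 UMIs in KO and 1625045 UMIs in WT. Levels are in counts per 1000000 gene UMIs (CPM), and ratios are log2 of KO over WT unless stated. Bclaf1 had 75.8 CPM in KO and 218 CPM in WT, a ratio of -1.52. Which stretch of it was deleted is not in the labels, and a 3′ tag can lie outside it. Kit, the c-Kit gene, had 219.7 CPM in KO and 200.4 CPM in WT (0.13), and Ly6a, the Sca1 gene, 9.60 CPM in KO and 12.8 CPM in WT (-0.42). Among markers of other cells, 8 of 10 measured erythroid genes, 6 of 7 mast cell or basophil genes and 3 of 8 granulocyte-monocyte genes were at least 25% higher in KO, where 7.47% of all tested genes were, and their part in the results was not tested beyond the values below. Of the other lists, 2 of 5 megakaryocyte, 0 of 4 lymphoid, 0 of 5 dendritic or macrophage, 1 of 1 hepatoblast and 0 of 1 endothelial genes were. In these other lists 1 gene was at least 20% lower, the macrophage gene Lyz2 (-0.35). The most abundant erythroid gene, the beta-globin gene Hbb-bt, was lower in KO, with 484 CPM in KO and 679 CPM in WT (-0.49), and the other 11 listed erythroid genes together had 769 CPM in KO and 532 CPM in WT. Sums were 1252 CPM in KO and 1211 CPM in WT for all erythroid genes, 685 CPM in KO and 498 CPM in WT for mast cell or basophil genes, and 966 CPM in KO and 801 CPM in WT for granulocyte-monocyte genes. The libraries shared 5 cell barcodes.

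Of the 67 members, 66 had at least 1 UMI and 56 reached a mean of 5 CPM over both libraries, and these are called measured: 5 H1, 14 H2A, 16 H2B, 9 H3 and 12 H4 genes. Hist1h2aa had no UMI in either library, and Hist2h2aa2 had none in KO and 4 in WT. The other unmeasured members were Hist1h1t, Hist1h2ah, Hist1h2ao, Hist1h2ba, Hist1h2bq, Hist1h3h, Hist2h3c1, Hist2h3c2 and Hist1h4f, with 0.00958 to 4.2 CPM in KO and 0.00707 to 2.84 CPM in WT. Members of a class have nearly the same coding sequence, and how reads shared by copies were counted is not given in the sources used here. Values of single genes may therefore hold reads of a copy. Such a split would touch Hist1h2ap too, which had 5757 CPM in KO and 2872 CPM in WT, beside 1.90 CPM in KO and 1.51 CPM in WT for the H2A gene Hist1h2ao.

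Of 3 ranges of cells set by cycling transcripts, the G2/M range had the highest captured histone levels in both libraries. Cells were placed in these ranges by the share of their UMIs in 38 S phase and 51 G2/M phase genes, none of them a histone gene: a G2/M range from 54.0 G2/M list UMIs per 10000, an S range from 18.5 S list UMIs per 10000 among the rest, and a low range below both. The limits came from WT and are cuts of a score, with 5.19% of KO and 5.41% of WT cells within 5% of one. The G2/M range was set first, whatever the S list share, so it also held cells rich in S genes. Its median S list share was 30.7 UMIs per 10000 in KO and 28.8 in WT. That share was 33.3 in KO and 34.1 in WT in the S range, and 10.4 and 9.99 in the low range. Summed histone levels in KO were 6351 CPM in the low range, 8986 CPM in the S range and 22357 CPM in the G2/M range. In WT they were 4263 CPM in the low range, 5976 CPM in the S range and 18557 CPM in the G2/M range. The S range thus stood above the low range by 0.50 on the log2 scale in KO and 0.49 in WT, and the G2/M range above the low range by 1.82 in KO and 2.12 in WT. The size of the S contrast depended on how cells were sorted: with scanpy's phase calls from the same lists, S over G1 was 1.19 in KO and 1.22 in WT, and with mitochondrial UMIs limited to 5% of a cell S range over low range was 0.66 in KO and 0.76 in WT. H3 had the widest G2/M contrast of the classes, 2.68 in KO and 2.79 in WT, and H2B the narrowest, 0.95 in KO and 1.17 in WT. H1, H2A and H4 lay between, from 1.77 to 1.88 in KO and from 2.00 to 2.29 in WT.

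By gene, 47 of 56 members in KO and 47 in WT were at least 2-fold higher in the G2/M range than in the low range, 46 of them in both libraries, where 6.52% of all tested genes in KO and 5.55% in WT were. At least 25% higher were 51 members in KO and 52 in WT, beside 23.5% of all tested genes in KO and 21.3% in WT, and at least 20% lower 3 in KO and 3 in WT, beside 35.1% in KO and 29.1% in WT. Hist1h3b, an H3 gene, had 4.61 CPM in the low range, 56.7 CPM in the S range and 243 CPM in the G2/M range of KO, and 2.27 CPM, 40.4 CPM and 182 CPM in the same ranges of WT. Its span from low to G2/M range was 5.72 on the log2 scale in KO and 6.33 in WT. Hist1h2af, an H2A gene, had 1.51 CPM, 19.7 CPM and 95.5 CPM in KO and 1.5 CPM, 14.1 CPM and 85.4 CPM in WT. Both genes were thus nearly absent from low range cells. Wide spans were also seen for Hist1h3c, with 5.55 in KO and 5.84 in WT, and for Hist1h1b, which encodes linker histone H1.5, with 4.21 in KO and 4.58 in WT. The span was wider in WT than in KO for 38 of 56 genes. The median span over the members was 2.16 in KO and 2.24 in WT, against -0.11 and -0.080 over all tested genes. The share of all genes with the larger value in WT was not counted.

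**Figure D1:**
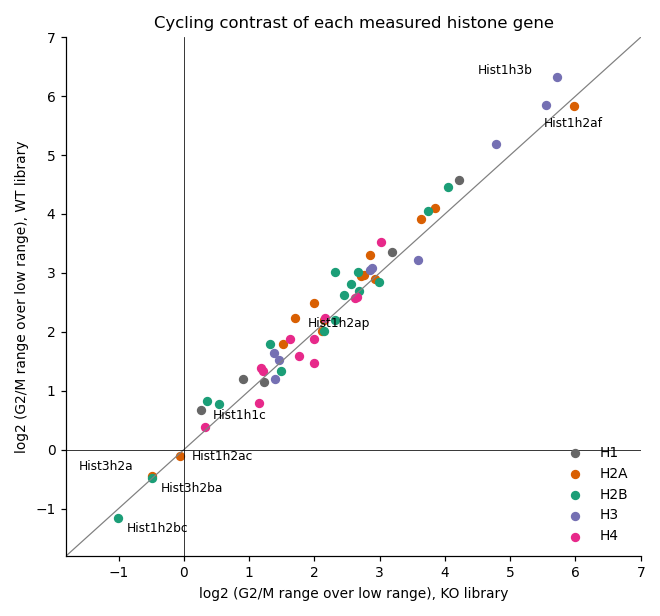
Each point is 1 of the 56 measured histone genes, coloured by class, placed by its log2 ratio of G2/M range over low range in the KO and the WT library. Most genes lie at high values in both, 38 of 56 with the larger value in WT, and Hist1h2bc, Hist3h2a, Hist3h2ba and Hist1h2ac lie below 0 in both. The share of all genes with the larger value in WT was not counted.

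A small set of members was lower in the S range than in the low range. At least 20% lower in the S range than in the low range were 6 of 56 members in KO and 5 in WT, 5 of them in both, where 31.7% of all tested genes in KO and 28.1% in WT were. In the other direction 37 members in KO and 35 in WT were at least 25% higher, 34 of them in both, beside 19.9% of all tested genes in KO and 19.1% in WT, and 23 in KO and 22 in WT at least 2-fold, beside 3.9% in KO and 3.38% in WT. Hist1h2bc, an H2B gene, had 472 CPM in the low range, 172 CPM in the S range and 233 CPM in the G2/M range of KO, and 355 CPM, 111 CPM and 158 CPM in WT. It was thus highest where cycling transcripts were lowest. The low range also held most of the mast cell signal. All 7 measured mast cell or basophil genes had ratios of G2/M range over low range below 0 in both libraries. These ran from -9.29 for Mcpt4 to -1.69 for Ms4a2 in KO, and from -8.08 to -0.15 for the same genes in WT. The part of cell type in the low range values was not tested. Hist3h2a and Hist3h2ba, an H2A and an H2B gene that are the only members on chromosome 11, had log2 ratios of S range over low range of -1.68 and -2.23 in KO and of -1.8 and -2.19 in WT. Hist1h2ac, an H2A gene, had -0.72 in KO and -0.91 in WT, and Hist1h1c, which encodes linker histone H1.2, -0.83 in KO and -0.71 in WT. Hist1h1c was still highest in the G2/M range, with 244, 138 and 292 CPM over the low, S and G2/M ranges of KO and 159, 96.8 and 254 CPM over those of WT. The H2B sum, in which Hist1h2bc was the largest entry, had a ratio of S range over low range of -0.34 in KO and -0.34 in WT, whereas the other class sums lay between 0.40 and 0.90 in KO and between 0.37 and 0.83 in WT. Hist4h4, an H4 gene alone on chromosome 6, varied little, with 9.02, 9.25 and 11.3 CPM over the 3 ranges in KO and 10.0, 9.74 and 13.1 CPM in WT.

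A finer division showed where the high levels lay. Cells were divided into 8 sectors of 45 degrees by their S and G2/M list shares, from sector 1 with both low, through sector 3 with S genes high, to sector 5 with both high, sector 6 with G2/M genes highest, sector 7 with G2/M genes high and S genes low, and sector 8, with S genes low and G2/M genes lower than in sector 7. The summed histone level in KO was 5949, 5718, 5788 and 6337 CPM in sectors 1 to 4, and 22591 and 20616 CPM in sectors 5 and 6. In WT it was 4005, 3545, 3525 and 3805 CPM in sectors 1 to 4, and 18574 and 17182 CPM in sectors 5 and 6. Cells rich in S genes but not in G2/M genes thus had captured histone levels near those of cells low in both. Sectors 7 and 8 had 9443 and 8147 CPM in 119 and 87 KO cells and 6483 and 5420.1 CPM in 256 and 263 WT cells. Sector 7 cells thus had less captured histone signal than sector 5 cells although their median G2/M list share was larger, 76.6 against 63.1 UMIs per 10000 in KO and 90.8 against 59.4 in WT. Their median S list share was smaller, 10.5 against 44.2 UMIs per 10000 in KO and 9.64 against 44.5 in WT, so captured histone levels did not follow the G2/M list alone. H2B was the class that stayed near its peak there, with 1379 CPM in sector 8 against 1482 CPM in sector 6 of KO, and 1052 CPM against 1294 CPM in WT.

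**Figure D2:**
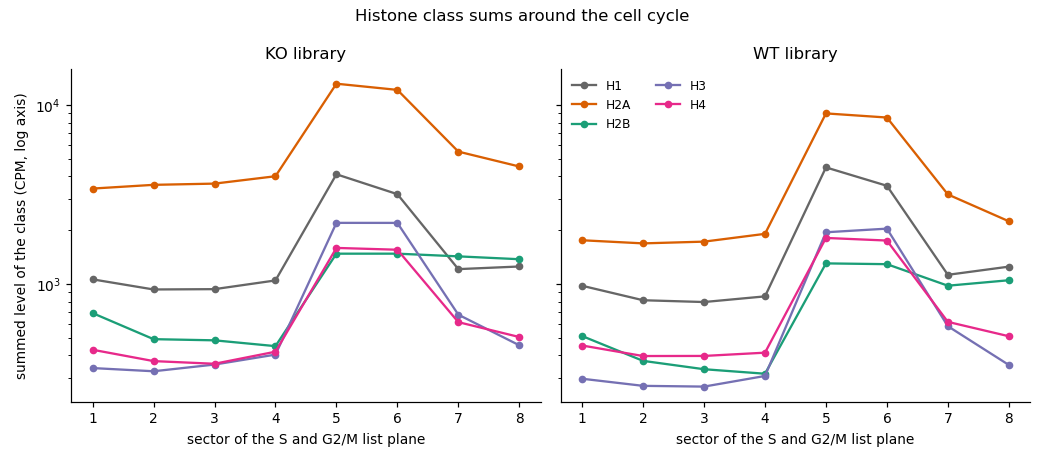
Summed level of the histone classes in CPM over the 8 sectors of S and G2/M list shares, in the KO and the WT library. The sum over all classes is 22591 CPM in sector 5 of KO and 18574 CPM in sector 5 of WT, and 5788 CPM in sector 3 of KO and 3525 CPM in sector 3 of WT.

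Outside the family, the 5 genes whose levels were most like the summed histone level over 24 classes of cells (4 surface gates, 3 ranges, 2 libraries) were Ccnb1, Kif20a, Mki67, Plk1 and Lockd, with Pearson correlations of 0.951 to 0.957 among 5251 genes with at least 20 CPM. Ccnb1 encodes cyclin B1, Plk1 a mitotic kinase and Kif20a a kinesin of cell division. Mki67 was itself among the genes that defined the ranges, and the classes share libraries and depth, so these values only describe likeness.

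Between genotypes, captured histone tags were higher in KO, and unevenly so over the classes. The summed level was 16219 CPM in KO and 11491 CPM in WT, 1.41-fold higher (log2 0.50). H2A had 9564 CPM in KO and 5597 CPM in WT (0.77, 0.77 to 0.78), H2B 1200.4 CPM in KO and 930.3 CPM in WT (0.37, 0.36 to 0.38) and H3 1561 CPM in KO and 1220.3 CPM in WT (0.36, 0.35 to 0.36). H1 had 2724 CPM in KO and 2579.9 CPM in WT (0.078, 0.071 to 0.085), and H4 1171 CPM in KO and 1163 CPM in WT (0.0093, -0.0014 to 0.020), an interval that includes 0. H2A thus stood well above H2B and H3, whose intervals overlap, and H1 and H4 followed. By gene, 26 of 56 measured members were at least 25% higher in KO, where 7.47% of all tested genes were: 11 of 14 H2A, 10 of 16 H2B, 3 of 9 H3, 1 of 12 H4 and 1 of 5 H1 genes. None was at least 20% lower, where 2.57% of all tested genes were. The median ratio was 0.31 over the measured members and 0.067 over all tested genes. KO cells were deeper and more often in the G2/M range, with 43.0% of KO and 33.3% of WT cells there. With cells thinned to 10000 UMIs the summed ratio was 0.53, and without cells high in lineage markers it was 0.50. The KO ranges were also weighted to WT, by the share of WT gene UMIs in each range and not by the share of cells. The summed ratio was then 0.35 and 15 members were at least 25% higher, with 12 of 56 changing sign.

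**Figure D3:**
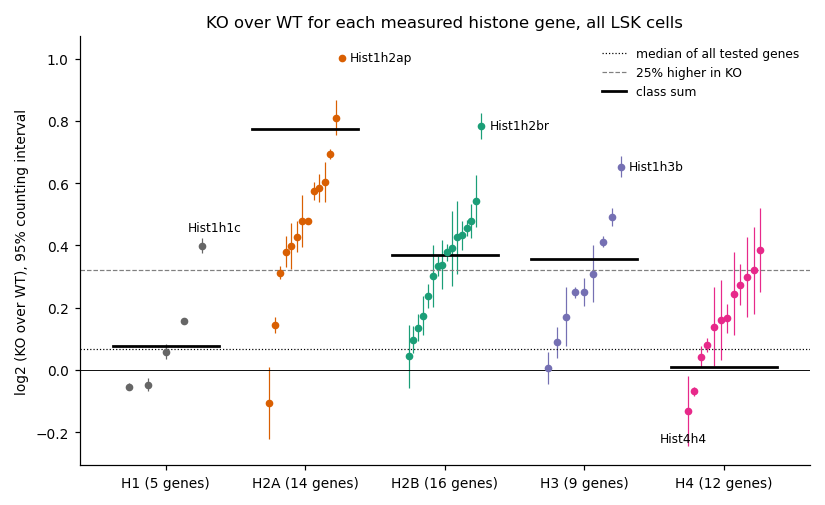
Log2 ratio of KO over WT for each of the 56 measured histone genes, grouped by class, with 95% counting intervals. Genes of H2A and H2B reach the highest ratios, led by Hist1h2ap at 1.00, while Hist1h4d and Hist1h1e lie just below 0.

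H2A, which pairs with H2B in the nucleosome, was led by Hist1h2ap. It had 5757 CPM in KO and 2872 CPM in WT (1.00, 1.00 to 1.01) and made up 35.5% of all histone UMIs in KO and 25% in WT. Without it the H2A sum had 3807 CPM in KO and 2726 CPM in WT (0.48) and the sum of all other histone genes 10463 CPM in KO and 8619 CPM in WT (0.28), so both ratios are smaller without Hist1h2ap. The next most abundant H2A gene, Hist1h2ae, had 2103 CPM in KO and 1511 CPM in WT (0.48, 0.47 to 0.49), and its share of histone UMIs was 13% in KO and 13.2% in WT. Hist1h2ab had 611 CPM in KO and 378 CPM in WT (0.69), Hist1h2an 198 CPM in KO and 133 CPM in WT (0.58) and Hist1h2ai 55.7 CPM in KO and 31.8 CPM in WT (0.81). Less abundant H2A genes had ratios of 0.60 for Hist1h2ad, 0.58 for Hist2h2aa1, 0.48 for Hist1h2ag, 0.43 for Hist1h2af, 0.40 for Hist3h2a and 0.38 for Hist1h2ak. The H2A genes short of 25% were Hist2h2ac with 326 CPM in KO and 262 CPM in WT (0.31), Hist1h2ac with 204 CPM in KO and 185 CPM in WT (0.14), and Hist2h2ab with 9.82 CPM in KO and 10.6 CPM in WT (-0.11, -0.22 to 0.011).

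**Figure D4:**
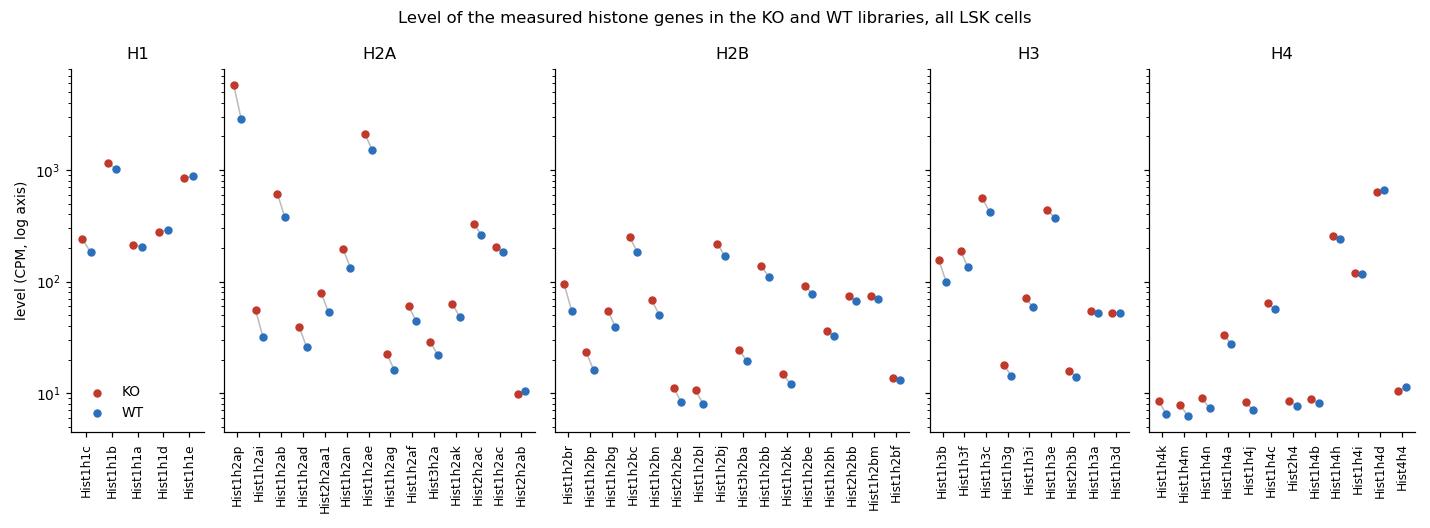
Level in CPM, on a log axis, of each measured histone gene in the KO and the WT library, by class. Hist1h2ap is the highest member in both, with 5757 CPM in KO and 2872 CPM in WT.

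All 16 measured H2B genes had ratios above 0, as did 12 of them with the KO ranges weighted to WT and 15 with scaling by the median of gene ratios. The median ratio over all tested genes was itself above 0, at 0.067, and the share of them above 0 was not counted. Hist1h2br had the largest, with 94.6 CPM in KO and 55.0 CPM in WT (0.78, 0.74 to 0.83). Hist1h2bc, the gene that was highest in the low range, had 251 CPM in KO and 183 CPM in WT (0.46), and Hist1h2bj 218 CPM in KO and 168 CPM in WT (0.38). The other H2B genes at least 25% higher were Hist1h2bp (0.54), Hist1h2bg (0.48), Hist1h2bn (0.43), Hist2h2be (0.43), Hist1h2bl (0.39), Hist3h2ba (0.34) and Hist1h2bb (0.33). Below that were Hist1h2bk (0.30), Hist1h2be (0.24), Hist1h2bh (0.17), Hist2h2bb (0.14) and Hist1h2bm (0.097), and Hist1h2bf with 13.6 CPM in KO and 13.2 CPM in WT (0.043, -0.057 to 0.14), an interval that includes 0.

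H3 and H4 form the tetramer at the centre of the nucleosome, but their genes differed in ratio. Hist1h3b had 155 CPM in KO and 98.8 CPM in WT (0.65, 0.62 to 0.69), Hist1h3f 188 CPM in KO and 134 CPM in WT (0.49) and Hist1h3c, the most abundant H3 gene, 560.0 CPM in KO and 421 CPM in WT (0.41). Hist1h3e had 440.2 CPM in KO and 370.3 CPM in WT (0.25), and Hist1h3g (0.31), Hist1h3i (0.25), Hist2h3b (0.17), Hist1h3a (0.088) and Hist1h3d (0.0068) did not reach 25% either. Of the H4 genes the most abundant, Hist1h4d, had 633 CPM in KO and 664 CPM in WT (-0.068, -0.083 to -0.054), Hist1h4h 256 CPM in KO and 243 CPM in WT (0.081) and Hist1h4i 119.6 CPM in KO and 116 CPM in WT (0.043). The H4 gene at least 25% higher was Hist1h4k, with 8.55 CPM in KO and 6.55 CPM in WT (0.38, 0.25 to 0.52). Hist4h4 had 10.4 CPM in KO and 11.4 CPM in WT (-0.13, -0.24 to -0.019). The other 7 measured H4 genes, with at most 63.8 CPM in KO and 56.9 CPM in WT, had ratios of 0.14 to 0.32, so the H4 sum mainly reflects Hist1h4d, Hist1h4h and Hist1h4i.

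Of the linker histone genes only Hist1h1c was at least 25% higher, with 241 CPM in KO and 183 CPM in WT (0.40, 0.37 to 0.42). Hist1h1b had 1144 CPM in KO and 1026 CPM in WT (0.16, 0.15 to 0.17) and Hist1h1a 213 CPM in KO and 205 CPM in WT (0.059). Hist1h1d, which encodes H1.3, had 280.0 CPM in KO and 289 CPM in WT (-0.047), and Hist1h1e, which encodes H1.4, 845 CPM in KO and 877 CPM in WT (-0.053, -0.066 to -0.041). The direction of the H1 and H4 sums was not stable: with scaling by the median of gene ratios the H1 sum had 0.00095 and the H4 sum -0.068, and with the KO ranges weighted to WT they had -0.063 and -0.14.

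Within ranges the difference was smaller in the G2/M range. The summed ratio was 0.58 in the low range, 0.59 in the S range and 0.27 in the G2/M range. For 38 of 56 genes the ratio was smaller in the G2/M than in the low range. The median over all tested genes was 0.086 in the low range and 0.057 in the G2/M range, against 0.27 and 0.13 over the members. The share of all genes with a smaller ratio in the G2/M range was not counted. Without Hist1h2ap the summed ratio was 0.28 in the low range, 0.31 in the S range and 0.068 in the G2/M range. That gene made up most of the difference in CPM in each range, and the ratio left without it was smallest in the G2/M range. H2A in the low range had 3631 CPM in KO and 1861 CPM in WT (0.96), in the S range 5553 CPM in KO and 2965 CPM in WT (0.91) and in the G2/M range 13085 CPM in KO and 9094 CPM in WT (0.52). H2B had ratios of 0.41 in the low range, 0.41 in the S range and 0.19 in the G2/M range, and H3 of 0.25 in the low range, 0.32 in the S range and 0.14 in the G2/M range. H1 had 0.11 in the low range, 0.14 in the S range and -0.14 in the G2/M range, and H4 -0.058 in the low range, -0.022 in the S range and -0.18 in the G2/M range. At least 25% higher were 22 of 56 members in the low range, where 11.5% of all tested genes were, 26 in the S range beside 8.37%, and 13 in the G2/M range beside 7.57%. At least 20% lower were 2, 0 and 1 members in the same order, beside 1.66%, 2.05% and 3.33%. Differences between ranges were not tested.

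Hist1h2ap had a ratio of 1.28 in the low range, 1.15 in the S range and 0.75 in the G2/M range. Its levels in KO were 2357, 3579 and 7714 CPM in that order, and in WT 972, 1618 and 4589.6 CPM. Its share of histone UMIs was 37.1% in KO and 22.8% in WT in the low range, 39.8% in KO and 27.1% in WT in the S range and 34.5% in KO and 24.7% in WT in the G2/M range. The shares thus differed more between the libraries than between the ranges of either. Its neighbour Hist1h2br had ratios of 1.02, 0.87 and 0.55 over the 3 ranges, and Hist1h1c 0.62, 0.51 and 0.20.

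Cells were also gated on the surface proteins CD150 and CD48, of which the CD150+CD48- phenotype is enriched for stem cells. The CD150+CD48- gate held 284 KO and 622 WT cells, CD150-CD48- 322 KO and 635 WT cells, CD150+CD48+ 396 KO and 637 WT cells and CD150-CD48+ 1674 KO and 3451 WT cells. In CD150+CD48- cells the sum of 12 genes used to check the stem cell gate was 1019.5 CPM in KO and 1360.4 CPM in WT. The summed histone level in that gate had 15508 CPM in KO and 9256 CPM in WT (0.74, 0.73 to 0.76), and the ratio was 0.47 in CD150-CD48-, 0.43 in CD150+CD48+ and 0.49 in CD150-CD48+ cells. In the CD150+CD48- gate H2A had 9248 CPM in KO and 4450.2 CPM in WT (1.06), H3 1418 CPM in KO and 897 CPM in WT (0.66), H2B 1081 CPM in KO and 717 CPM in WT (0.59), H1 2617 CPM in KO and 2172 CPM in WT (0.27) and H4 1144 CPM in KO and 1019 CPM in WT (0.17). At least 25% higher there were 39 of 56 members, where 14.9% of all tested genes were, and 0 were at least 20% lower, beside 18.9%. In the gates CD150-CD48-, CD150+CD48+ and CD150-CD48+ the members at least 25% higher numbered 22, 23 and 25, beside 11.7%, 10.1% and 8.01% of all tested genes, and those at least 20% lower 1, 1 and 0, beside 13.8%, 5.11% and 1.17%. For 47 of 56 members the ratio was larger in CD150+CD48- than in CD150-CD48+ cells. The median ratio over all tested genes was -0.0093 in CD150+CD48- and 0.084 in CD150-CD48+ cells, against 0.51 and 0.28 over the members. The share of all genes with the larger ratio in CD150+CD48- cells was not counted. Among H3 genes Hist1h3g had 16.3 CPM in KO and 7.44 CPM in WT (1.14) in the CD150+CD48- gate and Hist1h3b 149 CPM in KO and 71.5 CPM in WT (1.05).

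The libraries also differed in the make-up of ranges within the CD150+CD48- gate. There 37.7% of KO and 19.9% of WT cells were in the G2/M range and 40.5% of KO and 59.2% of WT cells in the low range. A larger G2/M share in KO was not particular to that gate. It was 36.6% in KO and 26.8% in WT among CD150-CD48- cells, and 59.6% in KO and 44.1% in WT among CD150+CD48+ cells. Among CD150-CD48+ cells it was 41.3% in KO and 34.975% in WT. With KO ranges weighted to WT, the summed ratio in the CD150+CD48- gate was 0.34, close to that over all cells given above. Within its low range, with 115 KO and 368 WT cells, the summed ratio was 0.61 and that of H2A 1.02. In its S range, with 62 KO and 130 WT cells, these were 1.00 and 1.38, and in its G2/M range, with 107 KO and 124 WT cells, 0.11 and 0.37. Without Hist1h2ap the direction in that G2/M range turned, with 13701 CPM in KO and 14681 CPM in WT (-0.10), as it did in the G2/M range of CD150-CD48- cells, with 11182 CPM in KO and 11978 CPM in WT (-0.099). Over the 12 combinations of gate and range the H2A ratio ran from 0.35 to 1.38, the H4 ratio was below 0 in 9 and the H1 ratio in 5. H2A was thus higher in KO in each combination, and H1 and H4 were not. Without Hist1h2ap the H2A ratio in the G2/M range was 0.11 in CD150+CD48- and 0.040 in CD150-CD48- cells. In CD150-CD48+ cells the summed ratio was 0.55 in the low range, 0.53 in the S range and 0.34 in the G2/M range. It was thus smaller than in CD150+CD48- cells in the low and S ranges and larger in the G2/M range. In the S range of CD150-CD48- cells the summed ratio was 1.02 and that of H2A 1.36, close to the values of CD150+CD48- cells.

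**Figure D5:**
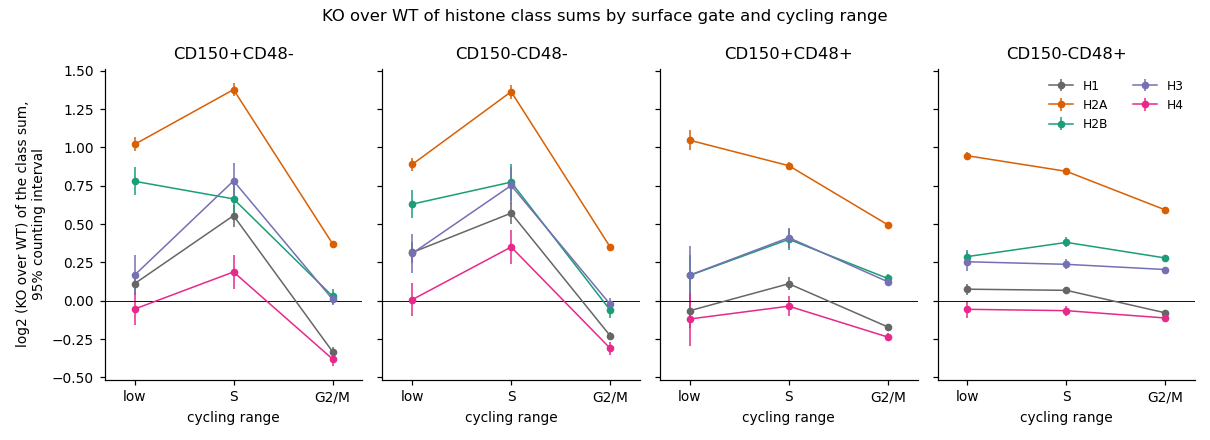
Log2 ratio of KO over WT for the histone class sums in each surface gate and cycling range. H2A lies above 0 in all 12 combinations, from 0.35 to 1.38, and H1 and H4 lie below 0 in the G2/M range of each gate.

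Within each library CD150+CD48- cells had less histone signal than CD150-CD48+ cells, and the gap was smaller in KO. The log2 ratio of CD150+CD48- over CD150-CD48+ was -0.093 (-0.10 to -0.085) in KO and -0.35 (-0.36 to -0.34) in WT. With cells thinned to 10000 UMIs it was -0.22 in KO and -0.41 in WT, and without the 5% of cells with most UMIs -0.23 in KO and -0.38 in WT. By gene, 13 of 56 members in KO and 36 in WT were at least 20% lower in the CD150+CD48- gate, beside 11.8% of all tested genes in KO and 7.71% in WT, and 0 in KO and 1 in WT at least 25% higher, beside 19.5% in KO and 29.7% in WT. Hist1h3g had a ratio of -0.18 in KO and -1.09 in WT, and Hist1h2ag -0.41 in KO and -1.10 in WT. Hist3h2ba ran the other way, with 0.090 in KO and 0.52 in WT. Among low range cells alone the summed ratio was -0.12 in KO and -0.19 in WT, among S range cells -0.0056 in KO and -0.47 in WT, and among G2/M range cells -0.16 in KO and 0.066 in WT.

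Single cells varied widely within each library. With every cell thinned to 10000 UMIs, which left out 1 KO and 111 WT cells, the median cell held 89 histone UMIs in KO and 52 in WT. The lowest 10% of cells held at most 28 in KO and 18 in WT, and the highest 10% at least 338 in KO and 269 in WT. Cells with over 100 histone UMIs made up 45.3% of KO and 30.6% of WT cells, and the highest 10% of cells carried 28.2% of all histone UMIs in KO and 32.6% in WT. Medians were 60 in KO and 39 in WT in the low range, 64 in KO and 39 in WT in the S range and 248 in KO and 209 in WT in the G2/M range. The median S range cell was thus close to the median low range cell in both libraries. For Hist1h2ap the medians were 38 in KO and 14 in WT.

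Free RNA in the droplets carried the same contrast. In empty droplets of 100 to 300 UMIs histone genes had 11437 CPM in KO and 8458 CPM in WT (0.44) and H2A 5682 CPM in KO and 3397 CPM in WT (0.74). Hist1h2ap in low range cells stood at 72.1% of its level in empty droplets in KO and 58.4% in WT, and Hist1h2ae at 68.2% and 58.6%. Genes set beside them, all with wide spans from low to G2/M range, stood far lower in the same cells. Hist1h3b was at 3.59% in KO and 2.46% in WT, Hist1h3c at 3.89% and 3.49%, and Hist1h2af at 3.27% and 4.17%. The cyclin A2 gene Ccna2 was at 3.06% in KO and 3.20% in WT. Some other members did not stand so low. Hist1h2bc had 472 CPM in low range cells and 212 CPM in empty droplets of KO, and 355 CPM and 145 CPM in WT. Hist1h1e had 568 CPM in low range cells and 869 CPM in empty droplets of KO, and 561 CPM and 772 CPM in WT. With the profile of empty droplets of 10 to 100 UMIs taken off at 20% of UMIs the summed ratio of KO over WT was 0.57, and the part of free RNA in the results was not tested further.

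H2A and H2B genes often lie head to head around a shared promoter, so ratios were also set out by position (GRCm38.p6). On chromosome 13 the members form a group of 23 genes from 21715711 to 22043658 and one of 31 from 23531044 to 23934913, and 10, 2 and 1 lie on chromosomes 3, 11 and 6. At least 25% higher in KO were 11 of 19 measured genes of the first group (median 0.38), 11 of 27 of the second (0.25), 2 of 7 on chromosome 3 (0.17) and 2 of 2 on chromosome 11, where 7.47% of all tested genes were. Of 10 pairs that start within 1000 bases of each other on opposite strands, each an H2A and an H2B gene, 7 had both genes measured and 6 had both at least 25% higher in KO. Hist1h2ap and Hist1h2br, the H2A and the H2B gene with the largest ratios, start 268 bases apart. Hist1h2ae and Hist1h2bg had 0.48 and 0.48, Hist1h2an and Hist1h2bp had 0.58 and 0.54, Hist1h2ak and Hist1h2bn had 0.38 and 0.43, Hist1h2ag and Hist1h2bj had 0.48 and 0.38 and Hist1h2ai and Hist1h2bl had 0.81 and 0.39. The exception was Hist1h2ad at 0.60 beside Hist1h2bf at 0.043. The H2A gene had the larger ratio in 5 of the 7 pairs.

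Promoters set the H2A and H2B genes apart from the others in sequence. For 62 of 67 members RefSeq (GRCm38.p6) gave the 250 bases before the start, which were searched on both strands for the octamer ATTTGCAT, the looser form ATTTGNAT that includes it, the CCAAT box CCAAT and TATAAA. The octamer was found in 7 of 18 H2A and 7 of 16 H2B promoters, in 0 of 6 H1, 0 of 10 H3 and 0 of 12 H4 promoters, and in 1.81% of all 27025 promoters. The looser form was found in 12 of 18 H2A and 13 of 16 H2B promoters, in no H1, H3 or H4 promoter, and in 4.51% of all. CCAAT was in 6 of 6 H1, 18 of 18 H2A, 16 of 16 H2B, 8 of 10 H3 and 3 of 12 H4 promoters and 37.5% of all, and TATAAA in 29 of 62 member promoters and 14.3% of all. Head-to-head partners share much of this stretch, so their matches are not separate, and a match describes letters only. Shown are Hist1h2ap, the member with the largest ratio, and Hist1h2ae, the next H2A gene in level, beside Hist1h4d and Hist1h1e, abundant members with ratios below 0. The stretches are Hist1h2ap at chr13:21833476-21833725 on the minus strand, Hist1h2ae at chr13:23571221-23571470 on the minus strand, Hist1h4d at chr13:23581318-23581567 on the plus strand and Hist1h1e at chr13:23622559-23622808 on the minus strand, read 5′ to 3′ towards the start, with motif matches on either strand in capitals.
Hist1h2ap: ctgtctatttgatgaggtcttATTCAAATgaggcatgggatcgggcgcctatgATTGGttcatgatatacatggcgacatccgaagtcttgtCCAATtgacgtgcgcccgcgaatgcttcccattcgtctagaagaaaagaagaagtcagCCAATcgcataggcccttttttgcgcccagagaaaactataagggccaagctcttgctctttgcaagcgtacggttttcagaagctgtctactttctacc
Hist1h2ae: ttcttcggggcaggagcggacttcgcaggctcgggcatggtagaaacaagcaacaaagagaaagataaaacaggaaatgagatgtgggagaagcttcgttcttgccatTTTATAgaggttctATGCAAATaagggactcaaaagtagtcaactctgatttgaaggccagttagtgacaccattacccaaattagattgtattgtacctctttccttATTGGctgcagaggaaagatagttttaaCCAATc
Hist1h4d: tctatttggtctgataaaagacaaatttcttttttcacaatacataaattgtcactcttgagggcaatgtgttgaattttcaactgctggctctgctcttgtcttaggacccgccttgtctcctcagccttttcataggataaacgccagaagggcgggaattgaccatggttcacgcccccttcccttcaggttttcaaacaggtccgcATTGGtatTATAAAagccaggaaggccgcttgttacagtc
Hist1h1e: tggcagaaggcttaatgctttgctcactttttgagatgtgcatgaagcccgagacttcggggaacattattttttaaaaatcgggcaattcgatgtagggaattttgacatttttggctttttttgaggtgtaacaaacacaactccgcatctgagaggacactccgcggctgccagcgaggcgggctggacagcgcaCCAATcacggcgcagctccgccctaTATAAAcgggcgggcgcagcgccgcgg

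Genes that make or carry these histones were set beside the shares over all tested genes, 7.47% at least 25% higher and 2.57% at least 20% lower in KO. At least 25% higher were 1 of 24 measured genes of histone message processing and transcription, with none at least 20% lower and a median ratio of 0.081. Slbp, which binds the stem-loop, had 113 CPM in KO and 105 CPM in WT (0.11), Npat 22.7 CPM in KO and 22.9 CPM in WT (-0.0097, -0.087 to 0.067), and Cpsf2, a subunit of the cleavage complex, 77.0 CPM in KO and 60.9 CPM in WT (0.34). Lsm10, part of the U7 particle that guides stem-loop cleavage, had 34.8 CPM in KO and 41.4 CPM in WT (-0.25). Of the histone chaperones 0 of 18 were at least 25% higher and none at least 20% lower (median 0.10), with Nasp, which holds soluble H3 and H4, at 261 CPM in KO and 215 CPM in WT (0.28) and Asf1b, which hands them to assembly factors, at 25.2 CPM in KO and 21.3 CPM in WT (0.25). Of polyadenylation genes 1 of 13 was at least 25% higher (median 0.13), the termination factor gene Pcf11 with 49.4 CPM in KO and 38.8 CPM in WT (0.35), and of cell cycle regulators of histone transcription 1 of 8 was (median 0.098), the cyclin A2 gene Ccna2 with 69.6 CPM in KO and 54.7 CPM in WT (0.35). Of the lists behind the ranges, 2 of 38 S genes were at least 25% higher and 1 at least 20% lower, and 17 of 51 G2/M genes were at least 25% higher. Apart from the G2/M list, these few genes in each list are near the shares over all genes.

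Histone genes listed here as replication-independent, which mostly encode variants deposited outside S phase as well, passed neither limit. At least 25% higher in KO were 0 of 10 measured genes, where 7.47% of all tested genes were, and none was at least 20% lower, where 2.57% were, so the counts are near those shares. Of the 10, 5 had ratios above 0, and the median was 0.043, beside 0.067 over all tested genes. H2afz and H2afv, the H2A.Z genes, had 1659.5 CPM in KO and 1688 CPM in WT (-0.024) and 317 CPM in KO and 379 CPM in WT (-0.26). H2afy, which encodes macroH2A1, had 1115 CPM in KO and 1316 CPM in WT (-0.24). The H3.3 genes H3f3a and H3f3b had 1843 CPM in KO and 1980.5 CPM in WT (-0.10) and 1901 CPM in KO and 1652 CPM in WT (0.20). H2afx, which encodes the DNA damage variant H2A.X, had 205 CPM in KO and 189.8 CPM in WT (0.11). Over the cycle, log2 ratios of G2/M range over low range were 2.74 in KO and 2.82 in WT for H2afx, 1.55 in KO and 1.55 in WT for H2afz and 0.067 in KO and 0.25 in WT for H3f3b. The rise of H2afx was thus above the median of the measured members, 2.16 in KO and 2.24 in WT, although it was listed as replication-independent.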

How the data were processed

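The deposited matrices hold raw UMI counts of genes and 6 antibody tags for every barcode, made by the authors with Cell Ranger 4 per the file headers. Version 4.0.6 and build mm10 are given per the submitters' processing notes, which also name Seurat and DESeq without a role. How reads shared by gene copies were counted is not given in the sources used here. Per the labels' protocols, c-Kit bead enrichment preceded sorting.

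Cells were barcodes with at least 9992 gene UMIs in KO and 8178 in WT (a limit set at 10% of a high quantile, the 99th percentile, among the 6000 largest barcodes), 500 genes and at most 10% mitochondrial UMIs. Doublets were not removed. Counts were summed over cells and scaled to CPM. Gates were set where a 2-component mixture (scikit-learn 1.9.0) of centred log-ratio CD150 and CD48 counts crosses, with 7.96% of KO and 5.52% of WT cells within 0.1 of a limit. Ratio intervals are exact conditional binomial ones (scipy 1.17.1). They were tried only on counts simulated from the Poisson model that they assume, so that trial does not cover variation between cells or libraries. With 1 library a genotype no test was run. Every member of at least 5 CPM could be named, as could measured genes of the lists. Members and lists were chosen with earlier results of these data known. Alternatives changed scaling, cell filters, depth, free RNA, cell make-up, ranges and gates. The antibody tag list was not used, and numpy 2.4.6, pandas 2.3.3, scanpy 1.11.5 and matplotlib 3.10.9 served the rest.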

Additional observations from a re-analysis of the deposited data

Results flagged for a closer look

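The summed level of the linker histone genes differed in direction between cycling ranges. Its log2 ratio of KO over WT was 0.11 in the low range, with 1096 CPM in KO and 1018 CPM in WT, and -0.14 in the G2/M range, with 3740.1 CPM in KO and 4109 CPM in WT. The opposite signs of the 2 ranges drew attention to it, and with 1 library a genotype the difference between ranges was not tested.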

How the results depend on the processing

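Of the sums recomputed under the alternatives, none over all histone genes or H2A changed sign, and no member was at least 20% lower in KO under any. The sums of the G2/M range by gate were not among these. Without Hist1h2ap they turned from above to below 0 in CD150+CD48- and in CD150-CD48- cells. The count of members at least 25% higher in KO was 26 as reported, 15 with the KO ranges weighted to WT, 18 with median-of-ratios scaling and 34 without the filter on low counts; of the 26 genes, 15 remained under the weighting, and of all 56 members 12 changed sign under it and 4 under that scaling. Values that moved beyond their counting interval follow, as log2 ratios. Scaling by the median of gene ratios gave 0.42 for KO over WT of all cells, 0.70 for KO over WT of H2A and 0.78 for KO over WT in the CD150+CD48- gate. A minimum of 500 gene UMIs per cell gave 0.49 for KO over WT of all cells, 0.77 for KO over WT of H2A, 0.69 for KO over WT in the CD150+CD48- gate, 0.52 for S over low range in WT, -0.13 for CD150+CD48- over CD150-CD48+ in KO and -0.34 for CD150+CD48- over CD150-CD48+ in WT. A mitochondrial limit of 5% gave 0.50 for KO over WT of all cells, 0.70 for KO over WT in the CD150+CD48- gate, 0.66 for S over low range in KO, 0.76 for S over low range in WT, -0.14 for CD150+CD48- over CD150-CD48+ in KO and -0.33 for CD150+CD48- over CD150-CD48+ in WT. Thinning to 10000 UMIs gave 0.53 for KO over WT of all cells, 0.82 for KO over WT of H2A, 0.70 for KO over WT in the CD150+CD48- gate, 0.41 for S over low range in KO, 0.42 for S over low range in WT, -0.22 for CD150+CD48- over CD150-CD48+ in KO and -0.41 for CD150+CD48- over CD150-CD48+ in WT. Taking off the empty droplet profile at 5% gave 0.51 for KO over WT of all cells, 0.77 for KO over WT in the CD150+CD48- gate, 0.54 for S over low range in KO, 0.53 for S over low range in WT and -0.37 for CD150+CD48- over CD150-CD48+ in WT. Taking it off at 20% gave 0.57 for KO over WT of all cells, 0.87 for KO over WT in the CD150+CD48- gate, 0.67 for S over low range in KO, 0.65 for S over low range in WT, -0.11 for CD150+CD48- over CD150-CD48+ in KO and -0.43 for CD150+CD48- over CD150-CD48+ in WT. Weighting the KO ranges to WT gave 0.35 for KO over WT of all cells, 0.63 for KO over WT of H2A and 0.34 for KO over WT in the CD150+CD48- gate. Phase calls gave 1.19 for S over G1 in KO and 1.22 for S over G1 in WT. Gates at fixed quantiles gave 0.68 for KO over WT in the CD150+CD48- gate and -0.26 for CD150+CD48- over CD150-CD48+ in WT. Low range cells alone gave 0.61 for KO over WT in the CD150+CD48- gate, -0.12 for CD150+CD48- over CD150-CD48+ in KO and -0.19 for CD150+CD48- over CD150-CD48+ in WT. Leaving out cells high in lineage markers gave 0.76 for KO over WT in the CD150+CD48- gate, 0.47 for S over low range in KO, 0.45 for S over low range in WT and -0.37 for CD150+CD48- over CD150-CD48+ in WT. Leaving out the 5% of cells with most UMIs gave 0.79 for KO over WT of H2A, 0.64 for KO over WT in the CD150+CD48- gate, 0.48 for S over low range in KO, 0.47 for S over low range in WT, -0.23 for CD150+CD48- over CD150-CD48+ in KO and -0.38 for CD150+CD48- over CD150-CD48+ in WT. Leaving out Hist1h2ap gave 0.28 for KO over WT of all cells, 0.48 for KO over WT of H2A, 0.51 for KO over WT in the CD150+CD48- gate, 0.44 for S over low range in KO, 0.41 for S over low range in WT and -0.11 for CD150+CD48- over CD150-CD48+ in KO. The subtraction at 20% and the omissions of the cells with most UMIs and of Hist1h2ap were chosen after seeing the data. Apart from what each alternative leaves out by construction, the cause of these shifts was not tested. Intervals cover counting error only, and variation between embryos, sorts and captures is unknown with 1 library a genotype. No paired analysis was possible because each group has a single sample and no test was made.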
